A study of Danio rerio with 9 samples.

Results

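Genes grouped under the name of yolk lipid transport are described here, most of them carriers of lipid or retinol. They are the apolipoprotein genes apoa2, apoa4, apoea and apoeb, the retinol-binding gene rbp2a and the lysosomal protease gene ctsc. They were chosen by name, and all 6 were present among the 32312 gene models of the tables and among the 19835 tested. Poly(A) RNA was taken from whole wild-type embryos of the TU strain at 24 h post fertilisation (hpf) and sequenced in 9 libraries. Exposed embryos received a methanolic coal dust extract in DMSO at 100 mg/L, starting at 4 hpf, and were sorted by malformation. P1 embryos had deformed tails (n = 3), P2 embryos had deformed yolks (n = 2), and P3 embryos were small with extruded yolks (n = 3). The control was a single pooled library of embryos of normal phenotype (n = 1), and the labels do not say whether those embryos were given DMSO. RNA came from 50 embryos per phenotype group, so each library is a pool of animals. The labels do not say whether libraries of 1 group came from separate exposures, so the p-values reflect variation among these libraries, part or all of which may be technical.

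At this stage a zebrafish embryo feeds from its yolk. The yolk syncytial layer, a multinucleate sheet around the yolk, packages yolk lipid into lipoprotein particles and releases them into the circulation. Apolipoproteins are the protein coat of these particles. ApoA-II and ApoA-IV sit on high-density and triglyceride-rich particles in mammals, and ApoE is the ligand by which receptors of the LDL family take particles up. Zebrafish have a pair of ApoE genes, apoea and apoeb. The product of rbp2a is a cellular retinol-binding protein that holds retinol inside absorptive cells in mammals, and cathepsin C, the product of ctsc, removes dipeptides from protein ends in the lysosome.

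Library totals ran from 12008832 counts in the control to 20810487 in the deepest P3 library. P3 replicate 0 stood furthest from its own group, with a chi-square per gene of 6.4 and 6.75 against the other P3 libraries, which differed from each other by 3.28. P3 values of the 6 genes and the P3 counts of gene lists are therefore also given without it. Levels are in CPM (counts scaled to library size with TMM factors). The 6 genes are set side by side only as FPKM, which divides by gene model length. Sums over lists and remarks on the abundance of other genes are in CPM and are not corrected for length. Differences are given as log2 fold change ± SE (standard error), all from a single edgeR quasi-likelihood model of the 9 libraries. The SE was computed as the size of the log2 fold change divided by the square root of its quasi-likelihood F statistic. A gene rose or fell where the Benjamini-Hochberg adjusted p over all tested genes was below 0.05. The single control was assumed to vary as the malformed groups do, and the 3 comparisons with the control share that library. The malformed groups did not vary alike: the chi-square per gene was 1.63 between the P2 libraries and 2.74 to 3.4 among the P1 libraries. In these bulk samples fewer cells of a type and less RNA per cell cannot be told apart. Such samples also do not show which tissue a transcript came from.

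Genes listed for the yolk syncytial layer were mostly detected. Of the 25 matched, mxtx2 and sox32, which act in the early embryo, were at 3 counts or fewer throughout, while apolipoprotein B (apobl) and transferrin (tfa) were abundant. With counts divided by the library total alone, as for all summed levels here, the 25 genes came to 9079.7 to 9755.8 CPM in P1, 7934.1 to 8377.8 CPM in P2, 11023 to 11349 CPM in P3 and 10436.2 CPM in the control. In the control apobl and the apolipoprotein gene apoc1l stood at 3644 and 1780 CPM with TMM factors. They are also in the list of apolipoprotein genes below, so the sums of both lists are not separate readings. Transcripts of the yolk proteins themselves were nearly absent. The 8 matched vitellogenin models summed to 0.492 to 1.25 CPM in the exposed libraries and 0.5 CPM in the control, and none passed the filter on low counts.

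Per length, apoa2 and apoeb were by far the most abundant of the 6 genes, apoa4 and apoea formed a middle pair, and ctsc and rbp2a were lowest. In P1 the levels were 1297 ± 42.2 FPKM for apoa2, 1289 ± 79.9 for apoeb, 138 ± 11.9 for apoea, 102.5 ± 3.82 for apoa4, 28.1 ± 1.83 for ctsc and 23.0 ± 2.7 for rbp2a (SD, n = 3). In P2 they were 1183 ± 4.34 FPKM for apoeb, 1181 ± 5.87 for apoa2, 94.5 ± 0.367 for apoea, 92.7 ± 2.9 for apoa4, 36.5 ± 1.68 for ctsc and 33.8 ± 2.23 for rbp2a (SD, n = 2). Some of these P2 SDs are smaller than counting error alone would give. For apoea at 100.0 CPM in P2 replicate 0, the 95% Poisson interval was 95.2 to 105 CPM. In P3 the order was apoa2 at 1597 ± 60.96 FPKM, apoeb at 1510 ± 53.5, apoa4 at 98.6 ± 9.7, apoea at 77.5 ± 2.36, ctsc at 54.7 ± 7.51 and rbp2a at 46.7 ± 3.3 (SD, n = 3). The control had 1415 FPKM of apoa2, 1380 of apoeb, 253 of apoa4, 126 of apoea, 23.4 of ctsc and 20.9 of rbp2a. Ranges over libraries overlapped for apoa2 and apoeb in all 3 malformations and for apoa4 and apoea in P2. Those of ctsc and rbp2a overlapped in P2 and P3. Within libraries, apoa2 was above apoeb in each P3 library, at 107.5%, 105.4% and 104.3% of its FPKM. In P2 ctsc was above rbp2a in both libraries, at 37.7 against 35.4 and 35.3 against 32.2 FPKM. There apoea was at 94.8 and 94.3 FPKM, against 94.7 and 90.6 of apoa4. Order was mixed within libraries, and so not resolved, for apoa2 and apoeb in P1 and P2 and for ctsc and rbp2a in P3. The middle pair changed order: apoa4 stood well above apoea in the control, below it in P1 and beside it in P2.

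Among all gene models ranked by FPKM, apoa2 was 60th to 91st and apoeb 70th to 90th over the 9 libraries. The 6 genes together took 0.41% to 0.541% of the counts in exposed libraries and 0.502% in the control.

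**Figure D1:**
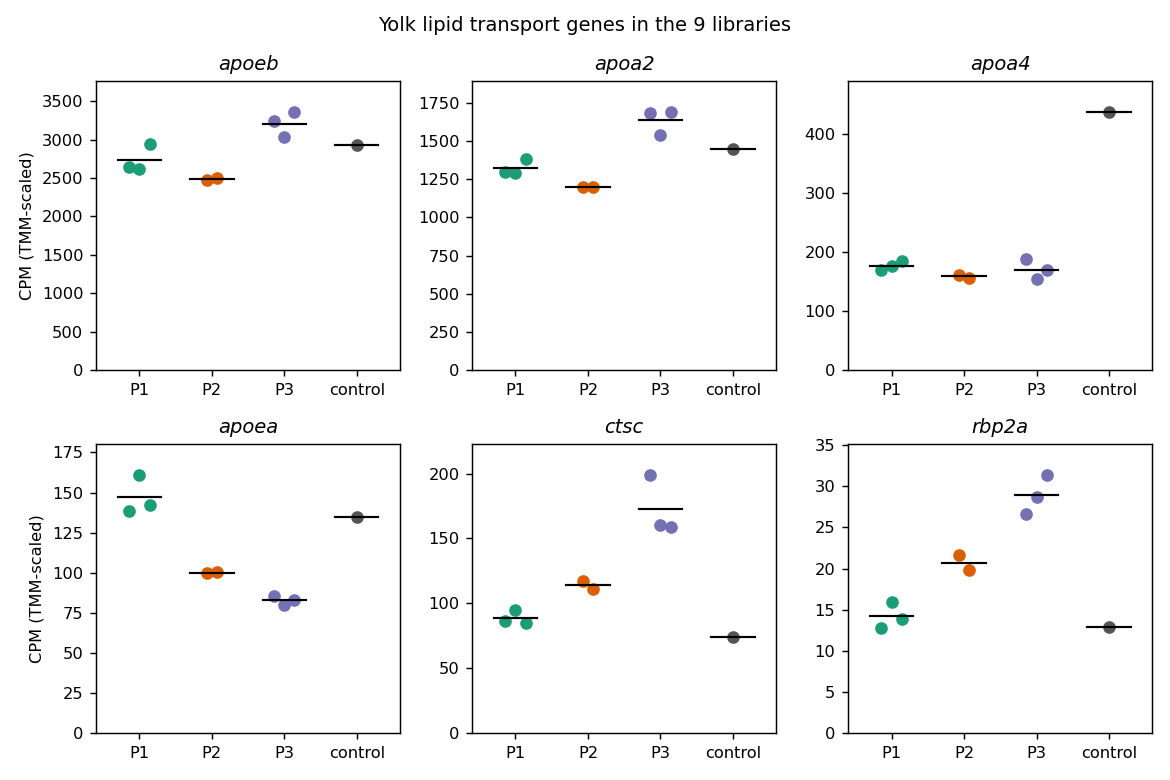
Level in CPM (vertical axis, from 0, scaled by TMM factors) of each of the 6 genes in every library. Points are libraries of P1 (n = 3), P2 (n = 2), P3 (n = 3) and the control (n = 1), and bars are group means. The control stands far above all exposed libraries in apoa4, and P3 stands above all other libraries in ctsc and rbp2a.

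The apolipoprotein gene apoa4 fell in all 3 malformations by a similar amount. The gene model (ENSDARG00000040298) lies on the plus strand of chromosome 16, from 26153363 to 26162762 in Zv9, the build of all coordinates here. Its level was 169.9, 177 and 185 CPM in P1, 162 and 156 CPM in P2, and 189, 154 and 169 CPM in P3, against 438 CPM in the control, whose 95% Poisson interval was 426 to 450 CPM. Every exposed library was far below the control, and the exposed groups lay close together.

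The log2 fold change of apoa4 over the control was -1.31 ± 0.09 in P1 (edgeR adjusted p = 1.66e-08), -1.46 ± 0.09 in P2 (3.64e-09) and -1.36 ± 0.09 in P3 (4.76e-09). Falls of 2.47-fold, 2.75-fold and 2.56-fold correspond to these values. Without P3 replicate 0 the P3 value was -1.44, and over all alternatives run it was -1.44 to -1.31. No difference in apoa4 among the malformations passed the threshold (edgeR F = 2.3, adjusted p = 0.24). P1 minus P2 was 0.16 ± 0.07, P3 minus P1 was -0.05 ± 0.06, and P3 minus P2 was 0.1 ± 0.07 on the log2 scale. The first of these passed in a fit of P1 and P2 alone (adjusted p = 0.0315) and without P3 replicate 0 (0.0458), in a range of 0.0315 to 0.458. For apoa4, P3 minus P1 and P3 minus P2 were -0.13 and 0.026 without P3 replicate 0.

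Reads of apoa4 may be shared with close copies, which makes its value uncertain. The gene name table calls this gene apoa4b.1, and another model, si:dkey-7f3.15 (apoa4b.3), lies inside it on the same strand over 1259 bases. That copy was at 5.98, 6.71 and 8.08 CPM in P1, 9.01 and 7.28 CPM in P2, and 6.67, 10.2 and 11.7 CPM in P3, against 35.0 CPM in the control. It too was lower in every exposed library, with log2 fold changes of -2.34 ± 0.2 in P1, -2.11 ± 0.21 in P2 and -1.86 ± 0.19 in P3 (edgeR adjusted p = 3.56e-07, 7.5e-07 and 1.3e-06). With the counts of both models summed, a choice made after seeing the data, apoa4 stood at -1.36 in P1, -1.5 in P2 and -1.39 in P3. Over the alternatives run, that summing included, the adjusted p of apoa4 against the control was at most 1.91e-06.

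The abundant pair apoeb and apoa2 moved little, and their largest differences were between P3 and P2. The gene apoeb (ENSDARG00000040295, chromosome 16, 26200037 to 26202754, plus strand) had 2637, 2616 and 2949 CPM in P1, 2474 and 2503 CPM in P2, and 3240, 3027 and 3358 CPM in P3, against 2927 CPM in the control. P2 libraries were below the control, P3 libraries above it, and P1 libraries on both sides of it. The gene apoa2 (ENSDARG00000015866, chromosome 16, 26218271 to 26219647, plus strand) had 1298, 1292 and 1384 CPM in P1, 1198 and 1197 CPM in P2, and 1679, 1539 and 1688 CPM in P3, against 1447 CPM in the control. For apoa2 both P1 and P2 libraries were below the control and P3 libraries above it.

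In P2 apoa2 fell by 0.27 ± 0.08 and apoeb by 0.23 ± 0.08 on the log2 scale (edgeR adjusted p = 0.0133 and 0.0434). The apoeb call ended without P2 replicate 0 (adjusted p = 0.122) or without P2 replicate 1 (0.0959), and its adjusted p ran from 8.98e-07 to 0.122 over the alternatives. The 8.98e-07 came from a fit of P2 and the control alone, whose spread rested on the 2 P2 libraries. In P1 the values were -0.13 ± 0.07 for apoa2 and -0.1 ± 0.08 for apoeb (edgeR adjusted p = 0.259 and 0.436). In P3 they were 0.18 ± 0.07 for apoa2 and 0.13 ± 0.08 for apoeb (0.101 and 0.26). Without P3 replicate 0 they were 0.16 and 0.13. The P3 value of apoa2 passed without P3 replicate 1 (adjusted p = 0.0428, against 0.0428 to 0.285 over the alternatives).

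Between malformations, both transcripts had a higher CPM in P3. Over P2 the log2 difference was 0.45 ± 0.06 for apoa2 and 0.37 ± 0.06 for apoeb (edgeR adjusted p = 3.68e-05 and 0.000539). Over P1 it was 0.3 ± 0.05 for apoa2 and 0.23 ± 0.06 for apoeb (0.000914 and 0.0128). Without P3 replicate 0 the differences were 0.43 and 0.36 over P2, and 0.285 and 0.224 over P1. The apoeb call over P1 ended without P1 replicate 0 (adjusted p = 0.0585) or without P1 replicate 1 (0.0555), and ran from 0.000137 to 0.0585 over the alternatives. P1 minus P2 was 0.15 ± 0.06 for apoa2 and 0.14 ± 0.06 for apoeb and did not pass (edgeR adjusted p = 0.0881 and 0.142). For apoa2 it passed in a fit of P1 and P2 alone (adjusted p = 0.0279, range 0.0279 to 0.29).

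The second ApoE gene, apoea, was lowest in P3, where apoeb was highest. It lies on another chromosome (ENSDARG00000086370, chromosome 19, 11954418 to 11958954, minus strand). Its level was 138, 161 and 142 CPM in P1, 100.0 and 100.1 CPM in P2, and 85.5, 79.9 and 83.0 CPM in P3, against 135 CPM in the control. P1 libraries were above the control, while P2 and P3 libraries were below it and below every P1 library.

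It fell by 0.43 ± 0.09 in P2 and by 0.7 ± 0.08 in P3 on the log2 scale (edgeR adjusted p = 0.0017 and 1.04e-05), and stood at 0.13 ± 0.09 in P1 (0.343). Without P3 replicate 0 the P3 value was -0.72. P1 exceeded P2 by 0.56 ± 0.07 (edgeR adjusted p = 1.99e-05), and P3 minus P1 was -0.83 ± 0.06 (1.4e-07). P3 minus P2 was -0.27 ± 0.07 (0.00808), a call that ended without P2 replicate 0 (adjusted p = 0.0699) or P2 replicate 1 (0.0747), in a range of 0.00121 to 0.0747. P3 minus P1 and P3 minus P2 were -0.85 and -0.295 without P3 replicate 0.

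Set against apoeb per length, apoea was at 10.4%, 12.2% and 9.59% of the apoeb FPKM in P1, 8.03% and 7.95% in P2, and 5.24%, 5.25% and 4.91% in P3, against 9.15% in the control. The share was lowest in the 3 P3 libraries. The same ratio for apoa2 was 97.4% to 107.5% in the exposed libraries and 103% in the control.

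The 2 genes that act inside cells, rbp2a and ctsc, rose in P2 and more in P3. The retinol-binding gene rbp2a (ENSDARG00000070038, chromosome 15, 5697322 to 5708818, minus strand) had 12.8, 15.99 and 13.8 CPM in P1, 21.6 and 19.8 CPM in P2, and 26.7, 28.7 and 31.4 CPM in P3, against 12.9 CPM in the control. P1 libraries lay around the control, P2 libraries above both, and P3 libraries above all others. The control value rested on 155 counts, with a 95% Poisson interval of 10.98 to 15.1 CPM.

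The log2 fold change of rbp2a was 0.13 ± 0.15 in P1 (edgeR adjusted p = 0.618), 0.68 ± 0.16 in P2 (0.00332) and 1.16 ± 0.15 in P3 (1.53e-05), and the P3 value was 1.22 without P3 replicate 0. P3 exceeded P1 by 1.04 ± 0.09 (edgeR adjusted p = 1.07e-06) and P2 by 0.49 ± 0.1 (0.00153), and P1 minus P2 was -0.55 ± 0.1 (0.00119). These P3 differences were 1.09 and 0.54 without P3 replicate 0.

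The protease gene ctsc (ENSDARG00000018806, chromosome 15, 42362040 to 42383557, minus strand) had 86.3, 94.65 and 84.65 CPM in P1, 117.5 and 111 CPM in P2, and 199, 160.2 and 159 CPM in P3, against 73.8 CPM in the control. The 3 P3 libraries were the highest, P3 replicate 0 above the others, and all exposed libraries were above the control.

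Its log2 fold change was 0.26 ± 0.12 in P1 (edgeR adjusted p = 0.143), 0.63 ± 0.12 in P2 (0.000963) and 1.23 ± 0.12 in P3 (9.39e-07). The P3 value was 1.11 without P3 replicate 0. The P1 value passed without P3 replicate 0 (adjusted p = 0.0224), without a filter on low counts (0.0415) and in a fit of P1 and the control alone (0.0417), within a range of 0.0224 to 0.318. P3 exceeded P1 by 0.96 ± 0.08 (edgeR adjusted p = 3.28e-07) and P2 by 0.6 ± 0.09 (9.09e-05), or by 0.849 and 0.483 without P3 replicate 0. P1 minus P2 was -0.37 ± 0.09 (0.00576), and this call ended without P2 replicate 0 (0.0895, range 1.13e-05 to 0.0895).

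**Figure D2:**
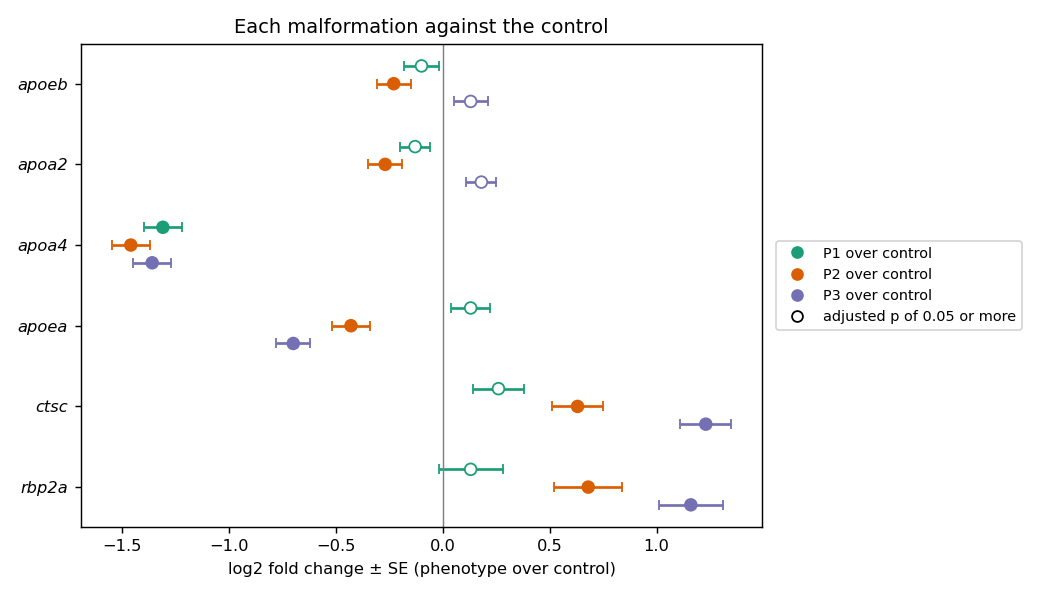
Log2 fold change over the control (horizontal axis) with its standard error for the 6 genes in P1, P2 and P3, from the edgeR fit over 9 libraries. Filled points have an adjusted p below 0.05. Those of apoa4 lie between -1.46 and -1.31 in all 3 malformations, while ctsc and rbp2a reach 1.23 and 1.16 in P3.

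Counted together, 1 of the 6 genes changed in P1 (0 higher, 1 lower), where 16.3% of all tested genes were called, 7.08% higher and 9.19% lower. In P2 all 6 changed (2 higher, 4 lower), where 29.8% of tested genes were called, 14.2% higher and 15.6% lower. In P3 4 changed (2 higher, 2 lower), where 22.6% were called, 10.4% higher and 12.2% lower. The median log2 fold change of the 6 was 0.01 in P1, -0.25 in P2 and 0.15 in P3, against medians of all tested genes of -0.001, 0.004 and 0.014. Between malformations, 3 of 6 differed for P1 over P2 (1 higher, 2 lower), where 20.5% of tested genes were called, 10.6% higher and 9.91% lower. For P3 over P1 the count was 5 (4 higher, 1 lower) with 10.4% of genes called, 6.01% higher and 4.42% lower. For P3 over P2 it was 5 (4 higher, 1 lower) with 21.5% called, 11.0% higher and 10.5% lower. A joint test for any difference among P1, P2 and P3 called 5 of the 6, all but apoa4, and 28.8% of all tested genes. Since the 6 were chosen with earlier results known, these counts describe them and test nothing. Without P3 replicate 0 no call of a P3 comparison changed for any of the 6.

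**Figure D3:**
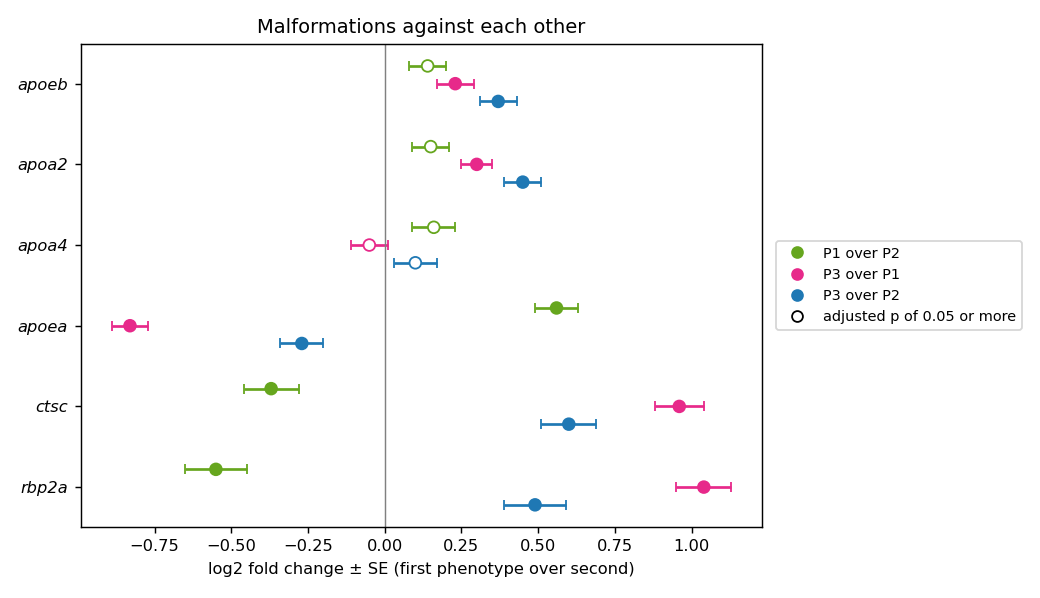
Log2 fold change between malformations (horizontal axis, first phenotype over second) with its standard error for the 6 genes. Filled points have an adjusted p below 0.05. P3 is above both P1 and P2 in apoeb, apoa2, ctsc and rbp2a and below both in apoea, and no value of apoa4 passed.

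In each comparison with the control, the authors' deposited table placed past an adjusted p of 0.05 the same members as the edgeR fit, 1 in P1, 6 in P2 and 4 in P3. In the authors' deposited table the log2 ratio of apoa4 was -1.17 in P1, -1.08 in P2 and -1.29 in P3. For ctsc it was 0.2, 0.32 and 1.07, and for rbp2a 0.06, 0.17 and 0.66, in the authors' deposited table. Those ratios are of variance-corrected counts, a different scale from the values above.

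On chromosome 16 apoa4, apoeb and apoa2 stand on the same strand within 77.1 kb that hold 9 gene models, 7 of them tested. The 4 others tested are si:dkey-7f3.15, zgc:194131 (apoa4b.2 in the gene name table), apoc1l and apoc2, whose product activates lipoprotein lipase. Neighbours in this cluster did not share 1 pattern. The apoa4 relative zgc:194131 rose in P2 (0.98 ± 0.1, edgeR adjusted p = 1.74e-06) and P3 (0.31 ± 0.1, 0.0286) and stood at 0.06 ± 0.1 in P1 (0.739). It had 77.7, 86.0 and 79.9 CPM in P1, 153 and 154 CPM in P2, and 106, 88.6 and 94.8 CPM in P3, against 77.98 CPM in the control. The gene apoc2 fell in all 3, by 0.6 ± 0.08 in P1, 0.61 ± 0.09 in P2 and 0.73 ± 0.08 in P3 (edgeR adjusted p = 0.000135, 7.67e-05 and 7.39e-06). Its neighbour apoc1l averaged 1884 CPM in P1, 1800.2 CPM in P2 and 2225 CPM in P3, against 1780.1 CPM in the control. It rose in P3 (0.32 ± 0.08, 0.00546) and stood at 0.08 ± 0.08 in P1 and 0.02 ± 0.08 in P2. On chromosome 19, zgc:112992, listed in RefSeq (GRCz12tu) as apoa4a, lies 4.32 kb from apoea on the same strand. It fell by 0.51 ± 0.1 in P1, 0.59 ± 0.1 in P2 and 0.38 ± 0.1 in P3 (edgeR adjusted p = 0.00209, 0.000408 and 0.00928), while apoea beside it fell in P2 and P3.

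**Figure D4:**
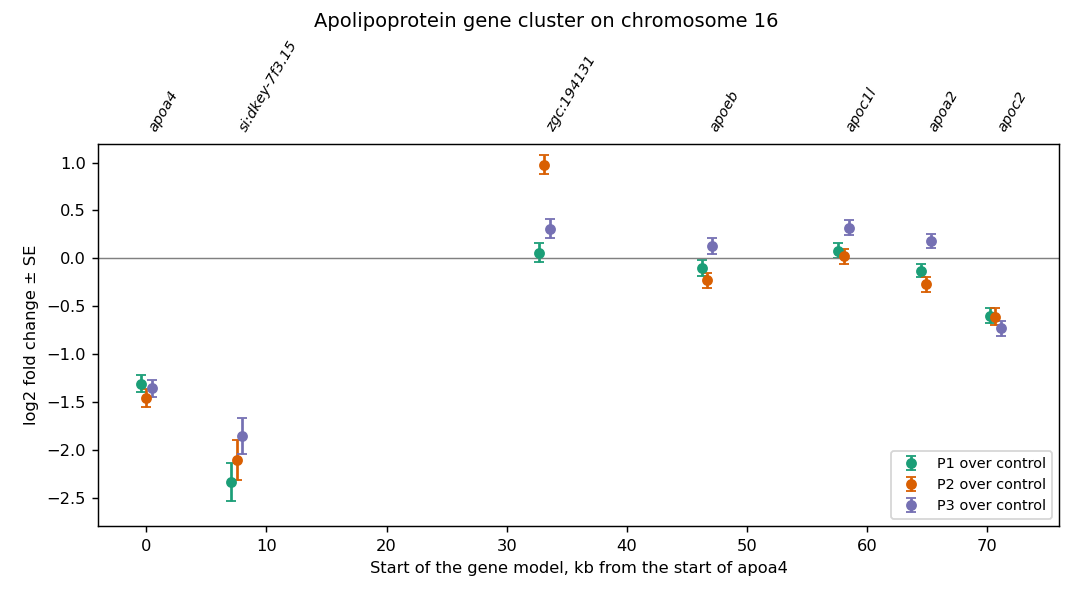
Log2 fold change over the control (vertical axis) with its standard error for the 7 tested genes of the chromosome 16 apolipoprotein cluster, placed by distance in kb from the start of apoa4. Points are P1, P2 and P3. The pair at the left end (apoa4 and si:dkey-7f3.15) and apoc2 at the right end are below 0 in all 3, and zgc:194131 is above 0 in P2 and P3.

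The lists that follow were chosen with earlier results known, and their counts stand against 16.3%, 29.8% and 22.6% of all tested genes called in P1, P2 and P3. The P3 calls of the cluster genes and the smallest-p genes of each list were checked without P3 replicate 0. This choice was made after seeing the data, and only fgg changed its call (-0.23, adjusted p = 0.0412). Genes marked as singled out after their values were seen were not checked this way. Other genes with an apolipoprotein name fell more often than they rose. Of 14 tested beside the 6, 1 rose and 7 fell in P1, 1 rose and 9 fell in P2, and 3 rose and 6 fell in P3, with medians of -0.44, -0.55 and -0.19. The gene that rose in P1, singled out after its values were seen, was APOOL (0.31 ± 0.1, edgeR adjusted p = 0.0473). Its product is a mitochondrial protein, as is that of apoob in the same list. The P3 counts were the same without P3 replicate 0. The apolipoprotein B model APOB (3 of 3), named apobb.2 in the gene name table, was at 54.7 ± 10.0 CPM in P1, 29.4 ± 0.51 CPM in P2 and 32.4 ± 0.294 CPM in P3, against 129.6 CPM in the control. Its log2 fold change was -1.24 ± 0.12 in P1, -2.14 ± 0.13 in P2 and -2.0 ± 0.12 in P3 (edgeR adjusted p = 1.5e-06, 1.9e-09 and 1.91e-09). The abundant apolipoprotein B gene apobl (apobb.1) averaged 2815 CPM in P1, 2545.5 CPM in P2 and 3660 CPM in P3, against 3644 CPM in the control. Its changes were smaller, at -0.37 ± 0.1 in P1, -0.52 ± 0.1 in P2 and 0.01 ± 0.1 in P3 (edgeR adjusted p = 0.0133, 0.00104 and 0.973). APOM, whose product carries a signalling lipid on high-density particles in mammals, fell by 0.58 ± 0.12, 0.99 ± 0.13 and 1.15 ± 0.12 (edgeR adjusted p = 0.00293, 1.45e-05 and 1.78e-06). The list had a summed level of 8693.5 to 9612.7 CPM in P1, 7886.7 to 8133.6 CPM in P2, 11701.8 to 12315.9 CPM in P3 and 10024.4 CPM in the control. Its most abundant gene, apoa1a, singled out after its values were seen, averaged 4143 CPM in P1, 3142 CPM in P2 and 5754 CPM in P3, against 3956 CPM in the control. That gene fell in P2 (-0.33 ± 0.1, edgeR adjusted p = 0.0181) and rose in P3 (0.54 ± 0.1, 0.000646).

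Genes listed for lipoprotein assembly, which include lipid synthesis and lipid storage genes, rose more often than they fell in P3. Of 26 tested, 4 rose and 3 fell in P1, 3 rose and 7 fell in P2, and 10 rose and 2 fell in P3, with medians of 0.02, -0.19 and 0.24. In P3 11 rose and 2 fell without P3 replicate 0. The cholesterol esterification gene soat1 rose by 0.95 ± 0.17, 0.53 ± 0.19 and 1.78 ± 0.17 in P1, P2 and P3 (edgeR adjusted p = 0.00118, 0.0384 and 5.34e-07). The acyl-CoA synthetase model ACSL1 (2 of 2) rose in all 3 (0.65 ± 0.1, 0.33 ± 0.1 and 0.84 ± 0.1), and acsl4a rose in P3 (0.64 ± 0.09, edgeR adjusted p = 3.23e-05). The related gene acsl1, singled out after its values were seen, fell in all 3 (-0.43 ± 0.09, -0.72 ± 0.1 and -0.64 ± 0.09). The secretory pathway gene sar1a fell in all 3 (-0.95 ± 0.1, -1.26 ± 0.11 and -1.2 ± 0.1). Its relative sara2, listed in RefSeq as sar1b, passed in none (0.11 ± 0.08, 0.04 ± 0.08 and 0.01 ± 0.08). That gene, singled out after its values were seen, averaged 156 CPM in P1, 149 CPM in P2 and 146 CPM in P3, against 145 CPM in the control.

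Genes that remodel or take up lipoproteins rose and fell in similar numbers. Of 25 tested, 2 rose and 3 fell in P1, 6 rose and 5 fell in P2, and 4 rose and 4 fell in P3, with medians of -0.03, -0.03 and 0.01. All tested genes were called at shares of 16.3%, 29.8% and 22.6%, and nothing particular to this list is read from its counts. The P3 counts were the same without P3 replicate 0. The lipase inhibitor gene angptl4 was at 64.1 ± 0.889 CPM in P1, 111 ± 1.39 CPM in P2 and 151 ± 11.8 CPM in P3, against 60.4 CPM in the control. It rose in P2 (0.88 ± 0.1) and P3 (1.33 ± 0.09; edgeR adjusted p = 2.69e-06 and 1.78e-08). Lipoprotein lipase (lpl) fell in P1 (-0.32 ± 0.08) and P3 (-0.8 ± 0.08). The lipid exporter gene abca1b fell in P1 and P2 (-0.61 ± 0.09 and -0.8 ± 0.1) and stood at -0.22 ± 0.09 in P3 (edgeR adjusted p = 0.106). Its relative abca1a, singled out after its values were seen, fell in P1 (-0.58 ± 0.12) but rose in P2 (0.46 ± 0.12). In P3 abca1a stood at -0.07 ± 0.12 (edgeR adjusted p = 0.713).

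Retinoid genes beside rbp2a also split. Of 24 tested carriers, receptors and enzymes, 5 rose and 7 fell in P1, 6 rose and 8 fell in P2, and 5 rose and 9 fell in P3, with medians of -0.18, -0.02 and -0.21. In P3 5 rose and 10 fell without P3 replicate 0. The second cellular retinol-binding gene rbp2b was at 24.9 ± 1.36 CPM in P1, 17.9 ± 1.04 CPM in P2 and 29.9 ± 3.08 CPM in P3, against 8.27 CPM in the control. It rose by 1.59 ± 0.16, 1.11 ± 0.17 and 1.86 ± 0.15 (edgeR adjusted p = 2.5e-06, 8.52e-05 and 1.43e-07). The plasma retinol carrier gene rbp4 fell in all 3 (-0.85 ± 0.08, -2.2 ± 0.09 and -1.66 ± 0.08), and the retinoic acid binding gene crabp1b fell as well (-0.6 ± 0.13, -1.33 ± 0.14 and -1.04 ± 0.13). In contrast cyp26a1, which encodes an enzyme that breaks down retinoic acid, rose in all 3 (1.07 ± 0.09, 1.68 ± 0.09 and 1.15 ± 0.09).

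Lysosomal genes beside ctsc also rose more often than they fell in P3. Of 31 tested, 1 rose and 3 fell in P1, 7 rose and 8 fell in P2, and 12 rose and 1 fell in P3, with medians of 0.04, 0.04 and 0.27. In P3 13 rose and 1 fell without P3 replicate 0. The gene psap, which encodes the precursor of the saposins that help degrade lipids, rose in P3 (0.62 ± 0.08, edgeR adjusted p = 1.79e-05) and stood at 0.09 ± 0.08 in P1 and -0.12 ± 0.08 in P2. The carboxypeptidase gene scpep1 rose in all 3 (0.75 ± 0.1, 0.65 ± 0.1 and 0.84 ± 0.09), and the cathepsin gene ctsk fell in all 3 (-0.46 ± 0.12, -0.99 ± 0.13 and -0.56 ± 0.12). The lipase gene lipf, named lipa in the gene name table, fell in P1 and P2 (-0.43 ± 0.11 and -0.88 ± 0.11).

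**Figure D5:**
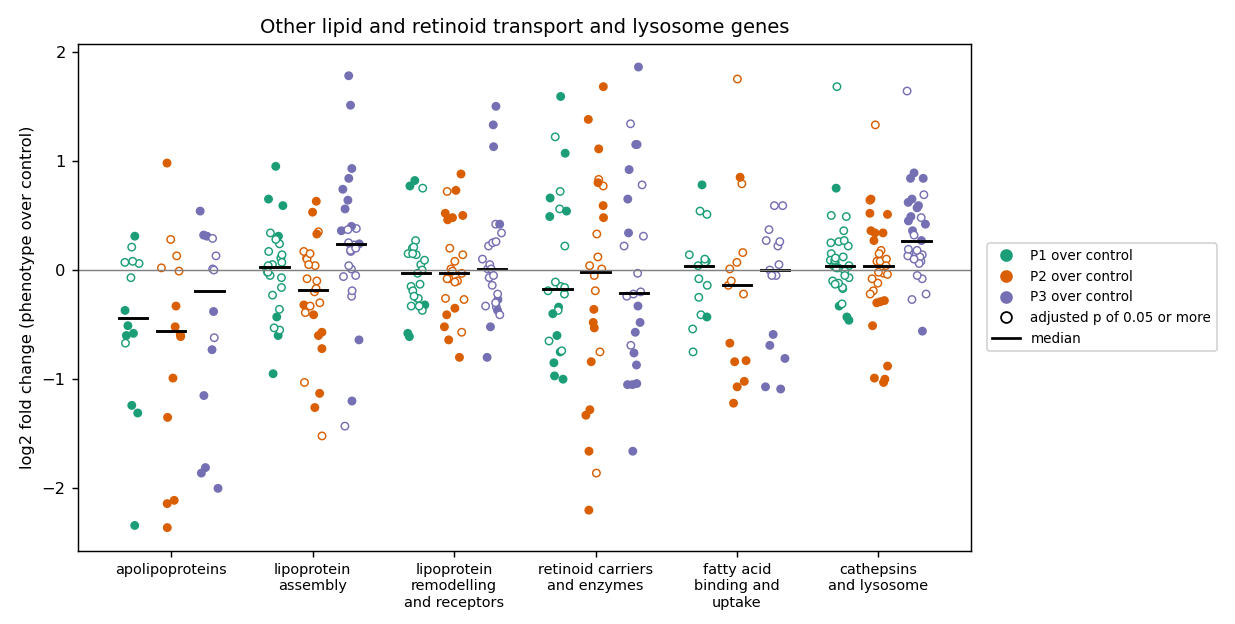
Log2 fold change over the control (vertical axis) of the tested genes in 6 lists around the 6 genes, which are left out, for P1, P2 and P3. Filled points have an adjusted p below 0.05 and bars are medians. The medians of the assembly and lysosome lists in P3 are 0.24 and 0.27, and that of the apolipoprotein list in P2 is -0.55.

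Fatty acid binding and uptake genes fell more often than they rose in P2 and P3. Of 15 tested, 1 rose and 1 fell in P1, 1 rose and 6 fell in P2, and 0 rose and 5 fell in P3, with medians of 0.04, -0.14 and 0. In P3 2 rose and 4 fell without P3 replicate 0. The fatty acid transporter gene slc27a2 fell in all 3 (-0.43 ± 0.1, -1.02 ± 0.1 and -0.59 ± 0.09), and fabp7a, expressed in neural progenitors, fell in P2 and P3 (-0.84 ± 0.12 and -0.81 ± 0.11). The intestinal gene fabp2 fell in P2 (-0.67 ± 0.11), and fabp1a fell in P2 and P3 (-1.22 ± 0.3 and -1.09 ± 0.28). The level of fabp1a was low, at 1.75 CPM in P2 and 1.93 CPM in P3, against 4.09 CPM in the control. Its relative fabp1b.1, singled out after its values were seen, had 457 CPM in the control. It passed in none of the 3 (0.08 ± 0.08, 0.01 ± 0.08 and 0.22 ± 0.08).

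Markers of the layers and cells that could supply these transcripts also moved. Of 22 tested yolk syncytial layer genes, several of which are themselves apolipoprotein genes, 2 rose and 6 fell in P1, 1 rose and 9 fell in P2, and 9 rose and 3 fell in P3 (medians 0.02, -0.11 and 0.25), with the same P3 counts without P3 replicate 0. The nuclear receptor gene hnf4a rose in P1 and P3 (1.11 ± 0.15 and 1.32 ± 0.15) and stood at 0.06 ± 0.17 in P2 (edgeR adjusted p = 0.819). The selenium carrier gene sepp1a fell in all 3 (-0.83 ± 0.08, -1.53 ± 0.09 and -0.41 ± 0.08). Of 20 liver and endoderm genes, 0 rose and 3 fell in P1, 1 rose and 10 fell in P2, and 5 rose and 3 fell in P3 (medians -0.09, -0.39 and 0.04), or 5 and 4 in P3 without P3 replicate 0. Their summed level was 2463.2 to 2559.5 CPM in P1, 1774.4 to 1800.1 CPM in P2, 2865.3 to 3211.7 CPM in P3 and 2379.8 CPM in the control, with the liver marker fabp10a at 3 counts or fewer in every library. Much of that sum was tfa, which is also in the yolk syncytial layer list, so the 2 lists are not separate readings. It averaged 1296 CPM in P1, 924 CPM in P2 and 1644 CPM in P3, against 1145 CPM in the control. Within the liver and endoderm list the clotting genes f2 and fgg fell in P1 and P2 (-0.28 ± 0.08 and -0.93 ± 0.08 for f2, -0.38 ± 0.09 and -1.05 ± 0.1 for fgg). In the same list ambpl fell in all 3 (-0.55 ± 0.11, -1.3 ± 0.12 and -0.5 ± 0.11), and ces3 fell in P2 and P3 (-1.76 ± 0.19 and -0.75 ± 0.16). The 5 that rose in P3 were cldnc (0.84 ± 0.15), serpina1l (0.79 ± 0.1), tfa (0.52 ± 0.08), serpina1 (0.42 ± 0.08) and foxa2 (0.38 ± 0.13). Those 5 were singled out after their values were seen. The part of these markers in the levels of apoa2 and apoeb was not tested.

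Macrophage and other myeloid genes, which belong to cells rich in cathepsins, were at low levels. Of 18 tested, 1 rose and 3 fell in P1, 1 rose and 4 fell in P2, and 2 rose and 3 fell in P3 (medians 0.05, 0.15 and 0.16), or 3 and 3 in P3 without P3 replicate 0. Since 16.3%, 29.8% and 22.6% of all tested genes were called, nothing particular to this list is read from its counts. The 20 matched genes summed to 69.35 to 80.5 CPM in P1, 71.1 to 73.2 CPM in P2, 73.5 to 82.3 CPM in P3 and 103 CPM in the control, and none was at 3 counts or fewer in every library. The macrophage gene mfap4 rose in P2 and P3 (0.78 ± 0.19 and 0.54 ± 0.18), whereas lyz, mpx and coro1a fell in all 3. In P3 lyz, mpx and coro1a averaged 10.6, 3.95 and 8.29 CPM, against 28.3, 11.7 and 15.03 CPM in the control. Of these lyz and mpx are known mainly from neutrophils. The macrophage gene mpeg1, singled out after its values were seen, averaged 5.49 CPM in P3, against 3.09 CPM in the control, and did not pass (edgeR adjusted p = 0.0816). The part of these cells in ctsc was not tested.

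Many epidermal genes fell, keratin genes among them, while others did not pass or rose. Of 27 tested, 0 rose and 17 fell in P1, 1 rose and 14 fell in P2, and 3 rose and 16 fell in P3 (medians -0.39, -0.31 and -0.4), or 4 and 16 in P3 without P3 replicate 0. Their summed level was 18664.5 to 19818.3 CPM in P1, 18669.9 to 18964.6 CPM in P2, 19444.5 to 20036.3 CPM in P3 and 26546.3 CPM in the control. The keratin genes krt15 (-3.41 ± 0.23, -3.91 ± 0.26 and -2.91 ± 0.21) and krt1-19d (-1.41 ± 0.17, -2.65 ± 0.2 and -1.89 ± 0.17) fell in all 3. The junction gene ppl fell in all 3 (-0.68 ± 0.08, -0.31 ± 0.09 and -0.78 ± 0.08), and icn fell in P1 and P3 (-0.81 ± 0.09 and -0.83 ± 0.09). Among genes singled out after their values were seen, the keratin gene krt4 averaged 10638 CPM in P1, 9853 CPM in P2 and 10828 CPM in P3, against 15357 CPM in the control, and so made up much of the summed level. In P3 cldne, EPCAM and grhl3 rose (0.43, 0.34 and 0.47, edgeR adjusted p = 0.0016, 0.0049 and 0.00563), and cdh1, cldni, cldnb and grhl1 passed in no comparison with the control. The part of epidermis in the apoa4 level was not tested.

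Genes whose log2 CPM ran most like each member over the 9 libraries were ranked among 10388 genes with assigned symbols and a mean of at least 5 CPM. The points share 1 control and fall into 4 groups, so the coefficients are a description only. For apoa2 they were ctsd and oclna (Pearson r = 0.985 each) and apoeb (0.983), and for apoeb they were apoa2 (0.983), amt (0.977) and ctsd (0.968). For apoa4 they were lrrc17 (0.99), the epidermal regulator gene tp63 (0.989) and emilin1a (0.986). For apoea they were tia1 (0.974), eaf2 (0.968) and E2F2 (0.963). For rbp2a they were cldnc (0.992), atg13 (0.977) and soul2 (0.972), and for ctsc they were MIA (0.99), trpc4apb (0.983) and ppp1r3b (0.98). Among the members, apoa2 ran closest to apoeb (r = 0.98) and rbp2a to ctsc (0.94), while apoea ran against rbp2a (-0.92) and ctsc (-0.88).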

How the data were processed

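The submitters' processing notes name Novoalign, without a version, and the Zv9 build for the 9 poly(A) libraries. How reads were counted, whether strand was used and which gene models served are not stated in the sources at hand. Raw counts for each gene come from the 3 deposited tables, per the file headers. The deposited FPKM values equal counts over gene model length and library total. The deposited log2 ratio and score (a scaled negative log10 of an adjusted p) are the authors' own, per the file headers, from a test not stated there. Deposited columns not used here numbered 23. The gene model lengths (other values) are as deposited.

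Control counts were identical in all tables, so 1 matrix of 32312 genes was made, and starts were made 1-based. Low genes were removed with filterByExpr in edgeR 4.0.16, with 10 as its minimum count and 15 as its minimum total. TMM factors and 1 quasi-likelihood fit with group as its term followed (R 4.3.3, limma 3.58.1), with 5 residual degrees of freedom and a common biological coefficient of variation of 0.0565. Tests were two-sided. Log2 CPM used a prior count of 2, and 3 counts correspond to 0.144 to 0.25 CPM. Poisson intervals and this floor cover counting error only. The fit was tested on simulated data.

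Members and the 11 lists were chosen with earlier results of these data known. Of 283 list entries, 199 matched a symbol of the tables, 49 the gene name table and 7 a RefSeq synonym, and 28 were unmatched. Beside the members, the text names up to 4 called genes with the smallest p against the control from each list, the tested genes between apoa4 and apoc2, zgc:112992, apobl, tfa, mxtx2, sox32 and fabp10a, of which the neighbours and the last 6 genes were picked after their values were seen, like those the text marks so. A gene that this rule names is not reported here. Each member has the 3 genes most like it. Alternatives were DESeq2 1.42.0, RLE factors, library totals, other filters, the compared groups alone, a replicate block and each phenotype replicate left out. No sequences are shown, as sequence tables were not used here.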

Additional observations from a re-analysis of the deposited data

How the results depend on the processing

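Over 15 alternatives (16 for apoa4), 621 of 637 values of the 6 genes kept their direction and their side of the threshold, 7 passed only in the alternative, 8 no longer passed and 1 reversed. The 637 include F statistics of the joint test, which have no direction, so for them only the side of the threshold could change. The reversed value was apoa4 in P3 over P1, at 0.013 without P3 replicate 1 (adjusted p = 0.931), against -0.05 in the fit of all libraries (0.67), in a range of -0.13 to 0.013 with a replicate left out. In the fit of all libraries and the 15 alternatives, no comparison had a median log2 fold change of all tested genes above 0.017 in size. DESeq2 called 1917, 3820 and 2736 genes for P1, P2 and P3 against the control, against 3227, 5916 and 4482 in the edgeR fit, and 2471, 1263 and 2656 for P1 over P2, P3 over P1 and P3 over P2, against 4072, 2069 and 4270. It called the same number of the 6 genes in each. In P1 against the control 2 of the 6 passed without a filter and in the fit of both groups alone, and 1 to 2 with a replicate left out. For P1 over P2, 5 passed in the fit of both groups alone. Leaving out each replicate gave 1725 to 5206 genes for P1 over P2, 1301 to 2156 for P3 over P1, 1885 to 4654 for P3 over P2, and 3083 to 6536 for any difference among the malformations. The low counts came without a P2 replicate, or for P3 over P1 without P1 replicate 0, and the cause was not tested; a lone P2 library was then assumed to vary like the other groups. Replicate numbers did not mark pairs: deviations of same-numbered P1 and P3 libraries correlated at -0.285, -0.218 and 0.08 over 12647 genes. Differently numbered P1 and P3 libraries correlated at -0.124 to 0.334. Deviations were taken from group means, so these values depend on each other. Whether libraries shared a batch under other numbers was not tested. With the number as a block, 2705, 5239 and 3919 genes were called for P1, P2 and P3 against the control, and the P2 value of apoeb was -0.189 (adjusted p = 0.0685). The control has 1 library, so its own spread could not be measured and it could not be left out.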
